A study of Mus musculus with 48 samples.

Results

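The major histocompatibility complex (MHC) class II genes of the mouse were followed in lung RNA from 48 mice. A total of 10 genes were taken by symbol from the 47561 genes of the deposited expression table. They are the genes of the classical chains (H2-Aa, H2-Ab1, H2-Ea-ps, H2-Eb1 and H2-Eb2), of the peptide loading chain H2-DMa and its partners H2-DMb1 and H2-DMb2, of the invariant chain (Cd74) and of the class II transactivator (Ciita). The set was selected with the levels of these genes by strain, injection and air in view, so in those 3 comparisons the members are only described. Sex played no part in the selection, and it was tested. All mice were adults, in 16 groups of 3 mice defined by strain (C3H/HeN, here C3H, or C57Bl/6, here C57B), sex, injection and air. Each mouse received 1 intraperitoneal injection of either saline or 25 mg/kg of aurothioglucose (ATG), which contains gold and blocks the enzyme thioredoxin reductase, and was then kept for 96 h in room air or in hyperoxia with more than 95% oxygen. The baseline group, saline in room air, thus also carried an injection. The sample labels do not name the C57Bl/6 substrain, and the assignment to saline rests on those labels alone. Both sexes were pooled for description, which gave 6 mice in each of 8 conditions.

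Expression is given as FPKM, fragments mapped to a transcript relative to its length and to the library total, so levels of different genes may be compared per length. The read depth behind each value is unknown, so errors rest on the variation among mice, which are separate animals. Differences are given on the log2(FPKM + 1) scale with the standard error (SE) of a limma fit over all 48 mice and 16994 genes, and a gene is called when its Benjamini-Hochberg adjusted p was under 0.05. For strain, injection and air, and for their combinations, the number of members called is given as a description beside the share of all genes called, and it is no test of the members. The FPKM of all genes summed to 510933 to 748290 per mouse. For all 48 mice the most similar other mouse was of the same strain and air. Scgb1a1, a club cell secretory protein, took 1.20% to 30.2% of the sum, with the highest share in C3HM saline room air mouse 1. Each of 6 lung tissue markers and of the cell type markers used here had a value above 0 in at least 1 mouse of every condition. That is too weak a condition to check the tissue of single samples. Without C3HM saline room air mouse 2 the number of genes called between strains at baseline was 4567 in place of 2982, whereas 8 members were called with and without that mouse.

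MHC class II molecules present peptides from the endosomal compartment to CD4+ T cells. An alpha and a beta chain form I-A (H2-Aa with H2-Ab1) or I-E (the product of H2-Ea-ps with that of H2-Eb1). Cd74, the invariant chain, occupies the groove and guides the dimer to the endosome, and the DM molecule then exchanges the remaining fragment of Cd74 for peptides. Ciita does not bind DNA itself and is recruited to a promoter module of an X box, bound by RFX and CREB family factors, and a Y box, bound by NF-Y. Its own transcription is constitutive in B cells and dendritic cells and inducible by interferon gamma elsewhere. In the mouse lung, alveolar type 2 cells also carry class II in the absence of infection. The H2-b haplotype of C57BL/6 mice lacks I-E because of a promoter deletion in the alpha chain gene, which the annotation therefore lists as a polymorphic pseudogene, whereas the H2-k haplotype of C3H mice expresses it.

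In GRCm38 (mm10), 8 of the 10 genes lie within 225.1 kb of chromosome 17, from position 34119541 to 34344645. Ciita lies on chromosome 16 (10480059 to 10528418), and Cd74 on another chromosome. RefSeq promoter sequences (GRCm38.p6) were examined for 6 members, and no member promoter was taken from the chromosome of Cd74. A stretch of 90 bases around the Y motif is printed for the 5 members in which that motif was found, since this is the stretch through which Ciita is recruited. Capitals mark the motifs: TGATTGG for the Y box, AACNGATG for part of the X box and TGACGTCA for a cAMP response element. Each sequence reads in the direction of transcription.
H2-Aa (chr17:34287844-34287933, minus strand): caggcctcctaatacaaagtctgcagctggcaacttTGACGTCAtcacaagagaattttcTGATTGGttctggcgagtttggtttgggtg
H2-Eb1 (chr17:34305746-34305835, plus strand): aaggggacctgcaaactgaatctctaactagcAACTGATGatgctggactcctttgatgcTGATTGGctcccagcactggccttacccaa
H2-Eb2 (chr17:34325513-34325602, plus strand): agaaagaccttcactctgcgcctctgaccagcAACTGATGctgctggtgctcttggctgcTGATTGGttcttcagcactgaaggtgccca
H2-DMb1 (chr17:34153068-34153157, plus strand): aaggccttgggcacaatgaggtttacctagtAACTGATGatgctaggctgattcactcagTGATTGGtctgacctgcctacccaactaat
H2-DMb2 (chr17:34145097-34145186, plus strand): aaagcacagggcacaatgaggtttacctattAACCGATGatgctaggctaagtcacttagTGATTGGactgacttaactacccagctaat

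Relative to the start site the Y motif began at position -50 in H2-Aa, -61 in H2-Eb1, -102 in H2-Eb2, -63 in H2-DMb1 and -92 in H2-DMb2. The windows of 4 of these genes held the X motif upstream of it, with 20 bases between the motifs in H2-Eb1 and H2-Eb2 and 21 bases in H2-DMb1 and H2-DMb2. The letters of the motifs were chosen after these sequences had been seen, and both strands were searched. The 32851 whole RefSeq promoter windows were all of 1 length and longer than the stretches printed. Among them, 7.82% held the Y motif, 2.32% the X motif and 1.79% the response element. H2-Aa held the response element, with 16 bases to the Y motif, and no match to the letters of the X motif. This does not show that H2-Aa lacks an X box. The X motif followed by the Y motif on the same strand within 40 bases occurred in 7 windows (0.0213%), 4 of them those of H2-Eb1, H2-Eb2, H2-DMb1 and H2-DMb2. Neither motif was found in the 2 windows of H2-DMa, which says only that these letters are not in those windows.

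In the lungs of saline C57B mice in room air, Cd74 was the most abundant of the 10 transcripts per length (1483 FPKM ± 110 SD, n = 6). The alpha and beta chains of I-A followed at nearly equal levels, with 559.7 ± 52.4 FPKM for H2-Aa and 587 ± 69.5 FPKM for H2-Ab1, and H2-Eb1 reached 445 ± 40.9 FPKM. The DM genes were an order of magnitude lower, with 54.8 ± 9.38 FPKM for H2-DMa, 50.8 ± 4.53 FPKM for H2-DMb1 and 21.2 ± 2.47 FPKM for H2-DMb2. Ciita, which acts on the promoters of the others, was measured at 3.85 ± 0.634 FPKM, and H2-Eb2, a beta chain gene of low expression, at 2.28 ± 0.498 FPKM. A share of the sequence of the DM beta genes is common to both: 38.5% of the 30-base sequences sampled from H2-DMb1 also occurred in H2-DMb2, and 34.5% of those of H2-DMb2 occurred in H2-DMb1. The reads of these genes could therefore have been divided between them, whereas at most 2.2% of the sequences of any other member occurred in another gene.

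H2-Ea-ps, the alpha chain of I-E, separated the strains without overlap. In the 24 C3H mice it ranged from 100.3 to 303 FPKM, and in the 24 C57B mice from 0 to 2.28 FPKM. The lowest, median and highest values of the C3H mice were 100.3, 238 and 303 FPKM in saline and room air, 189, 230.0 and 291 FPKM with ATG in room air, 100.3, 122 and 134 FPKM with saline in hyperoxia, and 151, 192 and 258 FPKM with ATG in hyperoxia. None of the 30-base sequences sampled from H2-Ea-ps occurred in another gene. H2-Eb1, its partner, was transcribed in both strains, so the lungs of C57B mice held the beta chain transcript of I-E with little or none of the alpha chain transcript. Within C3H the level of H2-Ea-ps was 1.16 ± 0.299 times that of H2-Eb1 at baseline.

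**Figure D1:**
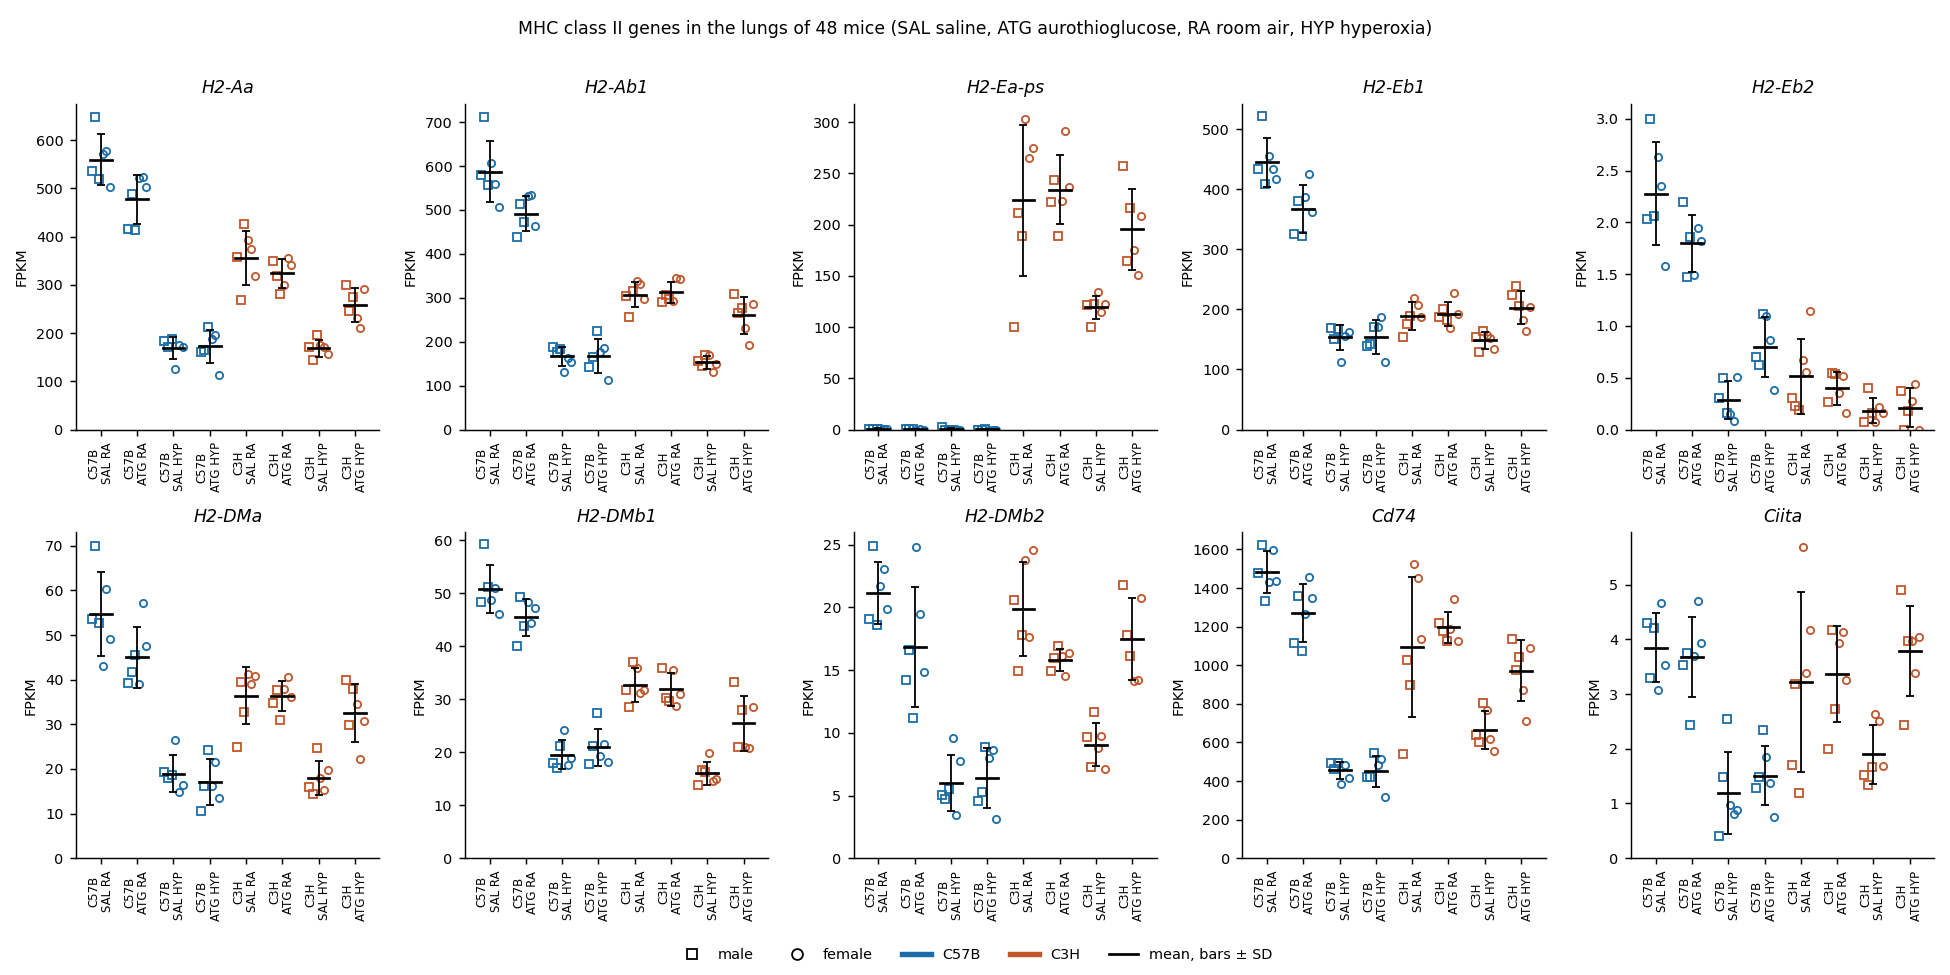
FPKM of each of the 10 genes (y axes, linear, starting at 0) in each mouse, by strain, injection and air (x axis, 6 mice per condition), with squares for males, circles for females, and bars for the mean ± SD. H2-Ea-ps is near 0 in all C57B conditions and at 100.3 to 303 FPKM in C3H, most other members are highest in C57B in room air, and the C3H mice given ATG in hyperoxia sit above the C3H mice given saline in hyperoxia for 6 members.

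The first comparison asked how the strains differed at baseline, in the saline mice in room air. Most class II genes were lower in C3H than in C57B: 7 members were called lower, against 12.2% of all genes tested, and H2-Ea-ps was called higher, against 5.38%. H2-Aa had a lowest, median and highest level of 268, 366 and 426 FPKM in C3H and of 503, 554 and 649 FPKM in C57B. H2-Ab1, the beta chain of I-A, had 257, 309 and 339 FPKM in C3H and 507, 570.0 and 712 FPKM in C57B. H2-Eb1 had 155, 188 and 219 FPKM in C3H and 409, 433 and 522 FPKM in C57B. All 6 C57B mice therefore lay above all 6 C3H mice in each of these chains, and the level in C3H was 63.6%, 52.4% and 42.4% of that in C57B, respectively. The differences (C3H minus C57B) were -0.66 for H2-Aa, -0.93 for H2-Ab1 and -1.24 for H2-Eb1, with an SE of 0.12, 0.11 and 0.10. H2-Eb2 followed the same order at a far lower level, with 0.188 to 1.15 FPKM in C3H and 1.58 to 2.99 FPKM in C57B. The groups did not overlap, with C3H lower, for 6 of the 10 members, which was the case for 3.57% of all genes tested.

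Among the genes of peptide loading, H2-DMa ranged from 25.0 to 41.3 FPKM in C3H and from 43.1 to 70.0 FPKM in C57B, and H2-DMb1 from 28.6 to 37.0 FPKM in C3H and from 46.2 to 59.2 FPKM in C57B. H2-DMb2 did not follow them, with 15.0 to 24.6 FPKM in C3H and 18.6 to 24.9 FPKM in C57B. Cd74 overlapped between the strains, since the C3H mice spread from 542 to 1524 FPKM, against 1334 to 1623 FPKM in C57B. The lowest of these values was that of C3HM mouse 1, the mouse with the highest share of Scgb1a1. Ciita was widely spread in C3H, from 1.19 to 5.69 FPKM, and covered the range of C57B, from 3.08 to 4.67 FPKM. Within the sexes (3 mice per group) the median difference over the members was -0.8 in males and -0.43 in females. Of the 10 members, 9 were negative in males and 7 in females. Cd74 differed by -0.89 in males and -0.13 in females, and Ciita by -0.75 and 0.18. In bulk tissue, fewer cells of a type and less RNA per cell cannot be told apart. Reads of both strains were mapped to the C57BL/6 reference genome, and the effect of sequence differences of the C3H haplotype on these levels was not tested. In the saline mice in hyperoxia, H2-Aa, H2-Ab1 and H2-Eb1 differed between the same strains by 0.00, -0.12 and -0.04 (SE 0.12, 0.11 and 0.10).

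Most markers of alveolar type 2 cells and of B cells were lower in C3H in the same mice, and macrophage markers went both ways. These lists were tested, but they too were chosen with earlier results of these data known. Of 8 alveolar type 2 cell markers 6 were lower in C3H and none was higher (limma, adjusted p). The 4 with the largest differences were Slc34a2, a phosphate transporter (-0.95, SE 0.27, adjusted p = 0.0132), Sftpa1, surfactant protein A (-0.91, SE 0.24, adjusted p = 0.00631), Lyz2, lysozyme (-0.91, SE 0.15, adjusted p = 3.15e-05), and Lamp3, of lamellar bodies (-0.75, SE 0.21, adjusted p = 0.0106), each lower in 6 of 6 C3H mice than the C57B mean. Of 8 B cell markers 6 were lower in C3H, led by Cd79a and Cd79b of the B cell receptor, with 11.0 and 19.3 FPKM in C3H against 28.4 and 42.7 FPKM in C57B (limma, adjusted p = 0.00223 and 0.000348), and by Ms4a1, which encodes CD20 (-1.23, SE 0.27, adjusted p = 0.000911). The summed level of the B cell list was 23.4 to 76.3 FPKM in C3H and 84.7 to 111 FPKM in C57B, and that of the alveolar type 2 cell list 30088 to 43477 FPKM in C3H and 40007 to 58925 FPKM in C57B. The dendritic cell list, of which 1 of 8 genes was lower (Ccr7, -0.79, SE 0.21, adjusted p = 0.00664 by limma), summed to 33.9 to 55.5 FPKM and 47.2 to 53.4 FPKM. Of the alveolar macrophage markers, Krt79 (1.64, SE 0.20), Car4 (1.17, SE 0.22) and Mrc1 (0.62, SE 0.14) were called higher in C3H and Chil3 (-1.88, SE 0.29) lower. Of the monocyte and interstitial macrophage markers, Ly6c2 (1.03, SE 0.20) was called higher and C1qb (-0.82, SE 0.17) lower. The part of these cells in the strain difference of the members was not tested.

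Genes that act with class II also differed between the strains at baseline. H2-Ob, a chain of the DO molecule that restrains DM in B cells, was lower in C3H (3.64 against 10.3 FPKM, limma adjusted p = 2.57e-05, lower in 6 of 6 C3H mice). Of the 12 genes of class II processing and turnover, 3 were lower in C3H and 2 were higher, and 7 did not pass. The other genes lower were March1 and March8, the ubiquitin ligases that remove class II from the surface (-0.52, SE 0.17, adjusted p = 0.0306 by limma in 4 of 6 C3H mice, and -0.46, SE 0.12, adjusted p = 0.00682 in 6 of 6). The endosomal protease Lgmn was higher (0.39, SE 0.09, limma adjusted p = 0.00139, in 6 of 6). Of the genes of interferon gamma signalling and Ciita induction, the receptor chain Ifngr2 was lower (20.0 against 28.9 FPKM, limma adjusted p = 0.000289, in 6 of 6 C3H mice).

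The second comparison asked what 96 h of hyperoxia did in saline mice. Class II transcripts were lower in hyperoxia in both strains. H2-Aa, H2-Ab1, H2-Eb1 and H2-DMa then differed between the strains by -0.12 to 0.00, whereas Cd74, with 665 ± 99.2 FPKM in C3H and 455 ± 44.1 FPKM in C57B, did not overlap. In C3H all 10 members were called lower in hyperoxia, against 13.9% of all genes tested. In C57B 9 of 10 were called lower, against 31%, and the exception, H2-Ea-ps, was near 0 in both airs. The values for H2-Aa in hyperoxia were 144, 171 and 196 FPKM (lowest, median and highest) in C3H and 126, 174 and 187 FPKM in C57B. Those for H2-Ab1 were 130.3, 152 and 169.9 FPKM in C3H and 132, 170.4 and 188 FPKM in C57B. No saline mouse of either strain in hyperoxia reached the lowest saline room air value of its strain for H2-Aa or H2-Ab1.

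As a share of the room air mean, H2-Aa was at 47.4% in C3H and 30.2% in C57B, and H2-Ab1 at 49.8% in C3H and 28.3% in C57B. H2-Eb1 fell less in C3H, to 78.6%, than in C57B, to 34.4%. The fitted differences for H2-Eb1 were -0.34 in C3H and -1.54 in C57B, each with an SE of 0.10. Among the genes of peptide loading, H2-DMa was at 49.4% in C3H and 34.6% in C57B, H2-DMb1 at 48.9% and 38.4%, and H2-DMb2 at 45.5% and 28.4%. Cd74 in hyperoxia had 555, 629 and 805 FPKM in C3H, which overlaps the room air mice, and 387, 471 and 495 FPKM in C57B, which does not. Ciita had 1.35, 1.68 and 2.64 FPKM in C3H, again within the range of the room air mice, and 0.413, 0.924 and 2.55 FPKM in C57B, below all saline C57B mice in room air. The airs did not overlap for 5 members in C3H and 9 members in C57B, each lower in hyperoxia, against 4.01% and 15.9% of all genes. Within the sexes (3 mice per group) the median over the members in C3H was -0.64 in males and -1.09 in females. In C57B it was -1.53 and -1.49. All 10 members were negative in both sexes of C3H, and 9 and 10 in C57B. Cd74 in C3H differed by -0.23 in males and -1.08 in females. In C3H the call of Ciita was lost under 3 alternative settings and on leaving out any of 5 mice, and that of H2-Eb2 on leaving out any of 6 mice. In place of 10, 8 members were called in C3H with a pseudocount of 0.1, in a fit of only the mice compared, and without C3HM saline hyperoxia mouse 7 or C3HF saline hyperoxia mouse 33.

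**Figure D2:**
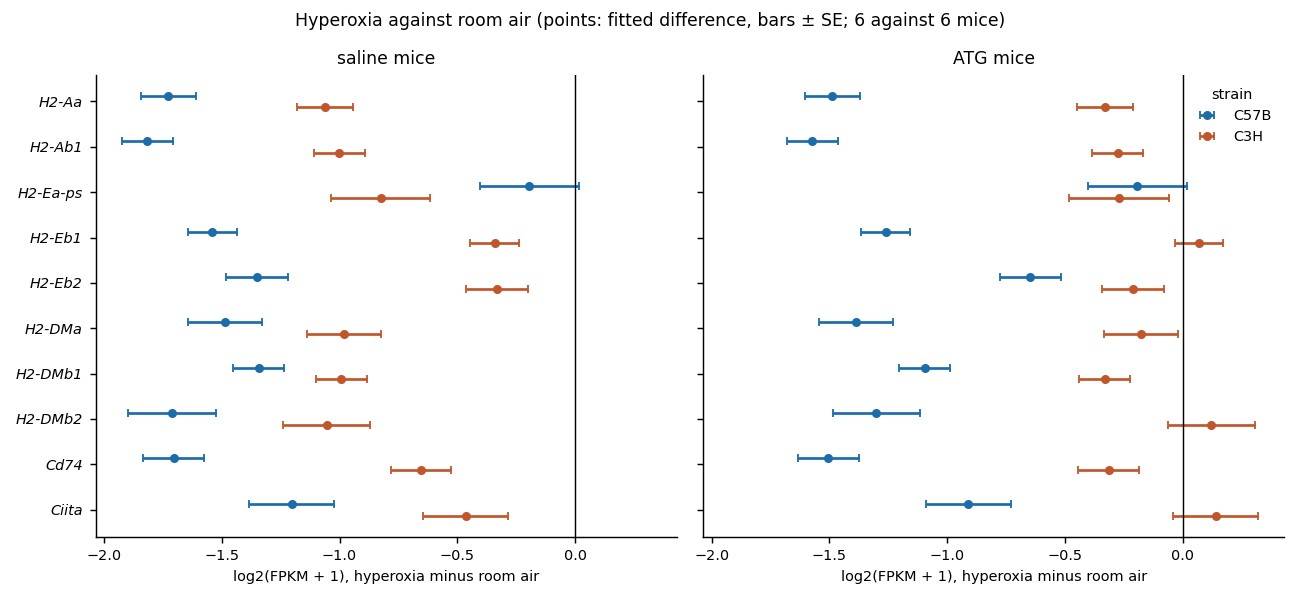
Difference in log2(FPKM + 1) between hyperoxia and room air (x axis) for each of the 10 genes (y axis), in saline mice (left) and ATG mice (right), with points for the fitted difference and bars for ± SE (6 against 6 mice). In saline mice every difference is below 0 in both strains, and in ATG mice the differences of C57B remain between -1.57 and -0.19 whereas those of C3H lie between -0.33 and 0.14.

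The difference between the strains in the response to hyperoxia had a positive sign for 9 members, as the decrease was smaller in C3H. It was called for 6 members, all positive, against 13.3% of all genes called in that direction and 4.37% called in the other. It was 1.20 (SE 0.15) for H2-Eb1, 1.05 (SE 0.18) for Cd74, 1.02 (SE 0.18) for H2-Eb2, 0.81 (SE 0.15) for H2-Ab1, 0.74 (SE 0.25) for Ciita and 0.66 (SE 0.17) for H2-Aa. The median over the members was 0.70, and the median over all genes was 0.15. When each mouse was scaled by the median ratio of its genes, the median over all genes was 0.0042, a shift of over 0.1 on the log2 scale, and 4 members were called, with a median of 0.55. The value of H2-Ea-ps was -0.63 and turned to 0.23 with a pseudocount of 0.1, since this gene was near 0 in C57B.

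Hyperoxia was accompanied by changes in the markers of the cells that carry class II. Of the 8 alveolar type 2 cell markers, 6 fell and 1 rose in C3H and 7 fell in C57B. Of all genes, 13.9% were called lower and 27.3% higher in C3H, and 31% lower and 26.4% higher in C57B, which is the background for this and the following lists. Sftpc, surfactant protein C, fell by 1.81 (SE 0.21) in C3H and by 2.72 (SE 0.21) in C57B (limma, adjusted p = 8.15e-09 and 1.5e-13, lower in 6 of 6 mice in each strain). Sftpb, surfactant protein B, was the one that rose in C3H (0.65, SE 0.14, limma adjusted p = 0.000344). In C57B all 8 B cell markers fell, among them Ms4a1 (8.66 to 1.56 FPKM), Cd79a (28.4 to 6.94 FPKM) and Cd79b (42.7 to 12.2 FPKM), with limma adjusted p between 7.59e-08 and 2.55e-06. In C3H 4 of 8 fell, led by Cd79b (-1.01, SE 0.24, limma adjusted p = 0.000718, lower in 6 of 6). The B cell list summed to 17.9 to 24.4 FPKM in C3H and to 15.1 to 32.7 FPKM in C57B, below all saline room air mice in C57B and with overlap in C3H. The alveolar type 2 cell list summed to 8373 to 25753 FPKM in C3H and to 8214 to 13733 FPKM in C57B, below all saline room air mice of the same strain. Dendritic cell markers fell for 5 of 8 genes in C57B, with Clec9a of cross-presenting dendritic cells from 6.93 to 1.11 FPKM (limma adjusted p = 5.5e-13, lower in 6 of 6), and for 3 of 8 in C3H, whereas Itgax, which macrophages also carry, rose in both. The list summed to 26.0 to 37.5 FPKM in C57B and 44.7 to 52.9 FPKM in C3H in hyperoxia. T cell markers fell for 3 of 6 genes in C3H and for 6 of 6 in C57B. Monocyte and interstitial macrophage markers rose for 4 of 7 genes in both strains (2 others fell in C57B), and their sum was 325 to 740.5 FPKM in C3H and 320.0 to 411 FPKM in C57B, above all saline room air mice of the same strain. The part of these cells in the decrease of the members was not tested.

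Other genes of the class II pathway did not fall together in hyperoxia. The cathepsins and the legumain that process antigen and the invariant chain rose in both strains: Ctsd rose by 1.44 (SE 0.13) in C3H and 0.95 (SE 0.13) in C57B (limma, adjusted p = 9.09e-11 and 2.02e-07), and Ctsb, Ctss, Ctsl and Lgmn were called higher in both as well. The DO genes fell in C57B, H2-Ob by 2.07 (SE 0.23) and H2-Oa by 1.29 (SE 0.21) (limma, adjusted p = 1.24e-09 and 1.76e-06), and H2-Oa fell in C3H by 0.74 (SE 0.21) (limma, adjusted p = 0.00396). Of the 12 genes of processing and turnover, 6 rose and 1 fell in C3H, and 5 rose and 4 fell in C57B. Of the 7 promoter factors, 1 rose and 1 fell in each strain. Nfya, a subunit of the Y box factor, fell in both (-0.29, SE 0.11, adjusted p = 0.0426 in C3H and -0.52, SE 0.11, adjusted p = 0.000202 in C57B by limma). Of the 8 genes tested of interferon gamma signalling and Ciita induction, 3 rose and 2 fell in C3H, and 3 rose and 3 fell in C57B. Among those that rose in both strains were Spi1 (0.66 in C3H and 0.59 in C57B, each with an SE of 0.23) and Jak1 (0.38 and 0.43, SE 0.11). Irf1, which acts on a Ciita promoter, fell in C57B from 52.2 to 23.7 FPKM (limma, adjusted p = 8.43e-11, lower in 6 of 6). In C3H Irf1 fell from 52.0 to 40.5 FPKM (limma, adjusted p = 0.00787). The difference between strains in the response was 0.75 (SE 0.16, limma adjusted p = 0.000895) for Irf1. Of the 6 genes of recognition and costimulation, Cd80, a ligand of CD28, rose in both strains (1.10, SE 0.27, adjusted p = 0.000942 in C3H and 1.80, SE 0.27, adjusted p = 4.25e-07 in C57B by limma).

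The third comparison asked what ATG did in each strain and air, against saline mice of the same strain and air. In room air no member was called in either strain. The limma fit called 0% of all genes in C3H, where 1594 genes had an unadjusted p under 0.05, and 0.053% in C57B. In C57B all 10 members had negative differences, from -0.41 for H2-Ea-ps to -0.06 for Ciita, with a median of -0.24 against -0.012 over all genes. H2-Aa had 413, 495 and 525 FPKM with ATG and 503, 554 and 649 FPKM with saline, so the groups overlapped in part. In C3H in room air the members lay on both sides of 0, with a median of 0.019. H2-Aa there had 281, 329 and 355 FPKM with ATG, within the range of the saline mice.

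In hyperoxia the strains differed in their class II levels after ATG. In C3H, 8 members were called higher with ATG than with saline, against 1.74% of all genes tested. H2-Aa had 209.6, 260.2 and 299 FPKM with ATG and 144, 171 and 196 FPKM with saline. H2-Ab1 had 193, 270.4 and 309 FPKM with ATG and 130.3, 152 and 169.9 FPKM with saline. H2-Ea-ps had 151, 192 and 258 FPKM with ATG and 100.3, 122 and 134 FPKM with saline. In each of these chains all 6 C3H mice given ATG lay above all 6 given saline. The same was true of H2-Eb1, H2-DMb1 and H2-DMb2, so 6 of 10 members did not overlap, against 1.08% of all genes tested. The level with ATG was 153% of that with saline for H2-Aa, 170% for H2-Ab1, 137% for H2-Eb1, 181% for H2-DMa, 159% for H2-DMb1 and 193% for H2-DMb2.

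Cd74 had 709.7, 1009 and 1136 FPKM in C3H with ATG in hyperoxia and 555, 629 and 805 FPKM with saline, with a slight overlap. Ciita had 2.43, 3.96 and 4.90 FPKM with ATG and 1.35, 1.68 and 2.64 FPKM with saline, and 1 mouse given ATG lay below the highest saline mouse. The differences were 0.54 (SE 0.13) for Cd74 and 0.72 (SE 0.18) for Ciita. H2-Eb2 was at most 0.439 FPKM in these mice, and its difference was 0.03 (SE 0.13). The median over the members was 0.66, and the median over all genes was 0.03. In males the median over the members was 0.81 and in females 0.52, with 9 and 10 of 10 members positive. With ATG in hyperoxia, H2-Aa, H2-Ab1 and Cd74 of C3H remained below the room air mice given ATG on average (differences -0.33, -0.28 and -0.32), while H2-Eb1 and Ciita did not (0.07 and 0.14). Of the 10 members 4 were called lower between these airs in C3H given ATG, against 15.9% of all genes tested, and 9 in C57B given ATG, against 23.8%.

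In C57B in hyperoxia, ATG left the class II chains near the saline level. H2-Aa had 113, 177 and 212 FPKM with ATG and 126, 174 and 187 FPKM with saline, and H2-Ab1 had 113, 171 and 225 FPKM with ATG and 132, 170.4 and 188 FPKM with saline. The differences of H2-Aa, H2-Ab1, H2-Eb1 and Cd74 lay between -0.03 and 0.01 with SEs of 0.10 to 0.13. The one member called higher, against 1.88% of all genes, was H2-Eb2, at 0.381 to 1.12 FPKM with ATG and 0.0827 to 0.502 FPKM with saline, and under 4 alternative settings no member was called. The difference between the strains in the effect of ATG was positive for 9 of 10 members, with 0.99 (SE 0.22) for H2-DMa and 0.76 (SE 0.15) for H2-Ab1, the 2 called, against 1% of all genes called higher. These values chose the members and are given without a test. Between the strains, both given ATG, 5 members were called lower in C3H in room air, against 8.8% of all genes, and 8 were called higher in C3H in hyperoxia, against 12.9%, with H2-Eb2 called lower. In saline mice in hyperoxia 3 were called higher in C3H, against 18.2%.

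**Figure D3:**
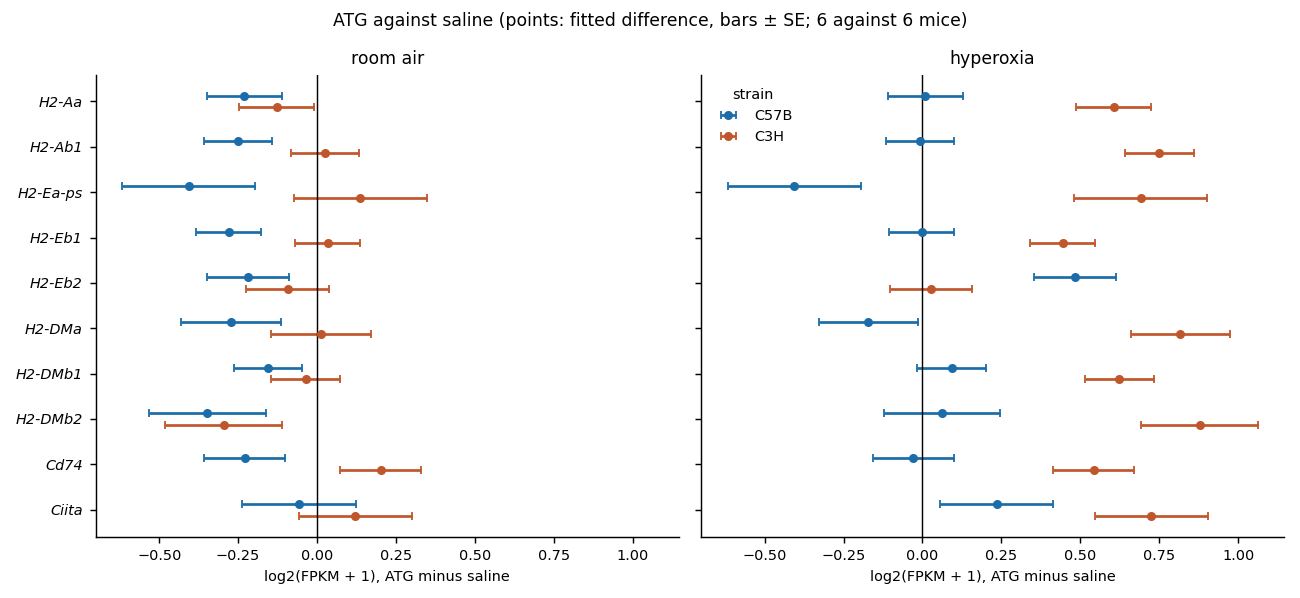
Difference in log2(FPKM + 1) between ATG and saline (x axis) for each of the 10 genes (y axis) in room air (left) and hyperoxia (right), with points for the fitted difference and bars for ± SE (6 against 6 mice). In hyperoxia 9 of the C3H points lie between 0.44 and 0.88, and those of C57B for H2-Aa, H2-Ab1, H2-Eb1 and Cd74 lie between -0.03 and 0.01.

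In the C3H mice given ATG in hyperoxia, alveolar macrophage markers fell, and a few dendritic cell, B cell and monocyte markers rose. Of 7 alveolar macrophage markers 6 fell, against 1.15% of all genes called lower, and the 4 with the largest differences were Ear2 (79.0 to 22.9 FPKM, limma adjusted p = 1.16e-06), Chil3 (298 to 129 FPKM, adjusted p = 0.00163), Siglecf (4.06 to 1.11 FPKM, adjusted p = 0.00015) and Krt79 (41.7 to 17.8 FPKM, adjusted p = 0.000256). Their sum was 166 to 577 FPKM with ATG and 442 to 899 FPKM with saline. Of 8 dendritic cell markers 3 rose, which were Batf3 (0.82, SE 0.21, limma adjusted p = 0.0241), Cd209a (0.76, SE 0.19, adjusted p = 0.0159) and Xcr1 (0.49, SE 0.12, adjusted p = 0.013), and the list summed to 43.2 to 65.3 FPKM with ATG and 44.7 to 52.9 FPKM with saline. The B cell list summed to 15.2 to 42.0 FPKM with ATG and 17.9 to 24.4 FPKM with saline, with Fcer2a, which encodes CD23, higher (5.27 against 1.58 FPKM, limma adjusted p = 0.00188). Of 7 monocyte and interstitial macrophage markers 1 rose, which was Ccr2, with a median of 32.5 FPKM with ATG and 6.32 FPKM with saline, where 1 mouse was at 48.3 FPKM (1.58, SE 0.38, limma adjusted p = 0.0128). That list summed to 344 to 569 FPKM with ATG and 325 to 740.5 FPKM with saline. The alveolar type 2 cell list summed to 9581 to 17242 FPKM with ATG and 8373 to 25753 FPKM with saline, and its 8 genes did not pass the test. Of the interferon gamma list, Ifngr2 rose from 21.7 to 29.7 FPKM (limma, adjusted p = 0.0103) and Socs1, an inhibitor of that signal, from 4.10 to 7.79 FPKM (limma, adjusted p = 0.0373). Of the processing genes Ctss, which cleaves the invariant chain, fell from 290.4 to 171 FPKM and Ctsd from 708 to 461 FPKM (limma, adjusted p = 0.00029 and 0.00598). The part of these cells in the levels of the members was not tested. In C57B in hyperoxia, where 0.812% of all genes were called lower with ATG, no gene of the cell type lists was called.

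The fourth comparison was that of males and females, which the selection of the genes did not use. Over the 24 males and 24 females the limma fit called 12.4% of all genes and no member. All differences (male minus female) lay between -0.16 for Ciita and 0.07 for H2-Ab1, and no member had an unadjusted p under 0.05. The 95% intervals of the 10 members lay within -0.34 to 0.18, which does not show that the sexes were equal. The sex difference itself differed between the strains for 0.453% of all genes and for no member (limma, lowest adjusted p = 0.192). Ciita had the one unadjusted p under 0.05 (difference between strains -0.47, 95% interval -0.84 to -0.11).

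Between the airs, the sex difference was called for 4.16% of all genes and for no member, although it had the same sign in all 10. It was largest for Cd74, where males had 1164 ± 281 FPKM and females 1359 ± 153 FPKM in room air (n = 12 each), and males 669 ± 256 FPKM and females 602 ± 224 FPKM in hyperoxia. Males thus lay below females on average in room air and above them in hyperoxia, with overlap in both. The difference for Cd74 was 0.41 (95% interval 0.15 to 0.67, limma adjusted p = 0.0572), for H2-Ab1 0.26 (0.04 to 0.48, adjusted p = 0.147), for H2-Eb1 0.22 (0.01 to 0.43, adjusted p = 0.207) and for Ciita 0.37 (0.01 to 0.74, adjusted p = 0.214). These 4 members had an unadjusted p under 0.05. Cd74 was called with quantile normalization and on leaving out any of 8 single mice, so its side of the threshold depended on these choices. In the same comparison 5 of 7 alveolar macrophage markers were called, with Chil3 at -1.15 (SE 0.29, limma adjusted p = 0.0226), Ear2 at -0.98 (SE 0.20, adjusted p = 0.00428), Marco at -0.93 (SE 0.28, adjusted p = 0.0472) and Mrc1 at -0.82 (SE 0.14, adjusted p = 0.000874).

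The 6 members with high levels in both strains (H2-Aa, H2-Ab1, H2-Eb1, H2-DMa, H2-DMb1 and Cd74) were averaged on the log2 scale to order the conditions. C57B saline mice in room air were highest (8.19 ± 0.131, n = 6), followed by C57B with ATG in room air (7.95 ± 0.125), C3H with ATG (7.45 ± 0.0787) and with saline (7.43 ± 0.190) in room air, C3H with ATG in hyperoxia (7.22 ± 0.222), and C3H with saline (6.59 ± 0.145), C57B with saline (6.58 ± 0.0831) and C57B with ATG (6.57 ± 0.283) in hyperoxia. Between neighbours in this order the ranges overlapped, except between C57B and C3H in room air and between C3H with ATG and C3H with saline in hyperoxia, where the lowest value with ATG was 6.86 and the highest with saline 6.81. The last 3 conditions could not be ordered.

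**Figure D4:**
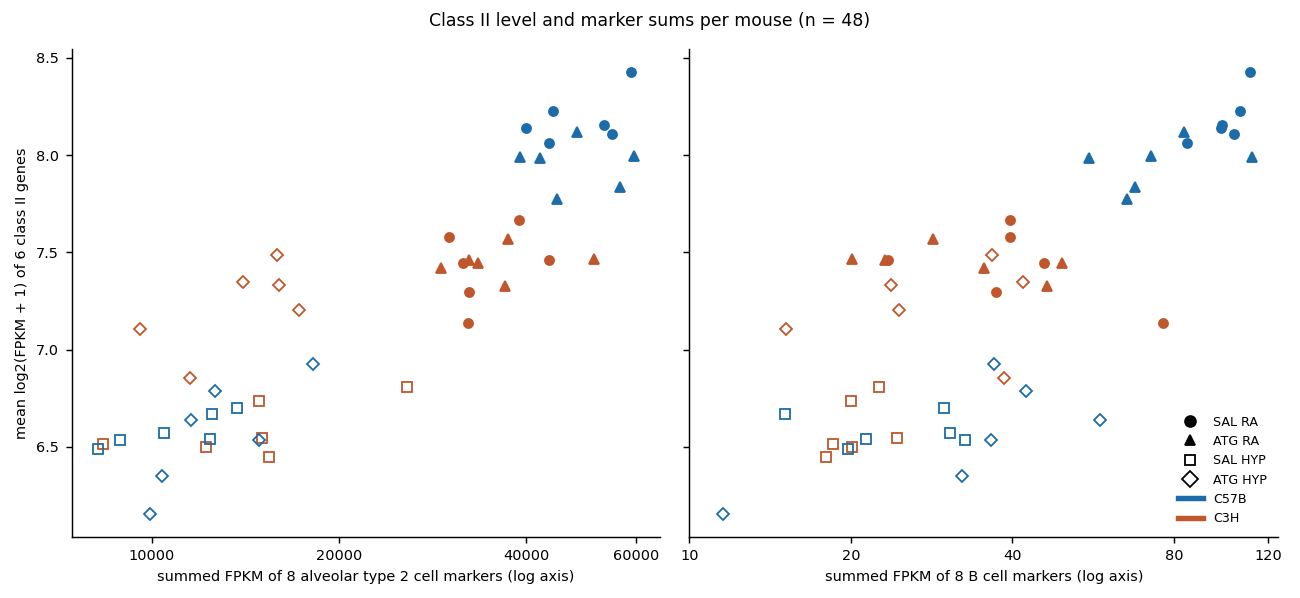
Mean log2(FPKM + 1) of 6 class II genes (y axis) in each of the 48 mice against the summed FPKM of 8 alveolar type 2 cell markers (left, log x axis) and of 8 B cell markers (right, log x axis), with colour for strain, symbol for injection and air, and filled symbols for room air. Room air and hyperoxia separate along the x axis on the left. The C3H mice given ATG in hyperoxia lie between 6.86 and 7.49 on the y axis, at type 2 marker sums of 9581 to 17242 FPKM. Within that range of sums the other hyperoxia mice reach at most 6.79. Beyond it, C57B mouse 24 with ATG in hyperoxia is at 6.93 (18138 FPKM), above the lowest of these C3H mice. C3H mouse 9 with saline in hyperoxia is at 6.81 (25753 FPKM).

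These 6 members moved closely together. Over the 48 mice the 15 pairs among them had Pearson correlations of 0.79 to 0.98, and of 0.16 to 0.87 after the mean of each of the 16 groups was subtracted. The mice share conditions, so these values describe the data and no test was made. Against the mean of the 6, Ciita had r = 0.75 over all mice and 0.36 within groups, H2-DMb2 0.83 and 0.59, and H2-Eb2 0.71 and 0.15, which is low in expression. The alveolar type 2 cell list followed the same mean with r = 0.90 over all mice and 0.62 within groups, the dendritic cell list with 0.73 and 0.46, the B cell list with 0.80 and 0.10, the T cell list with 0.77 and 0.13, and the interferon gamma list with 0.55 and 0.29. Over all mice the alveolar macrophage list (r = -0.15, and -0.08 within groups) did not follow that mean. Nor did the monocyte and interstitial macrophage list (-0.30 and 0.30) or the promoter factors (0.13 and 0.16). Within groups, however, the monocyte and interstitial macrophage list had a higher r than the B cell, T cell and interferon gamma lists.

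Outside the members, the genes most like the mean of the 6 over the 48 mice were Tgtp2 (r = 0.93), Irgm2 (0.91), Gbp2 (0.91), Lyz2 (0.90) and Igtp (0.90). Tgtp2, a GTPase inducible by interferons, had 23.2 ± 2.88 FPKM in C57B and 13.4 ± 3.23 FPKM in C3H with saline in room air, 3.96 ± 0.419 and 7.14 ± 1.39 FPKM with saline in hyperoxia, and 4.20 ± 0.927 and 11.8 ± 2.04 FPKM with ATG in hyperoxia. Its C3H mice given ATG in hyperoxia (8.90 to 15.2 FPKM) thus lay above those given saline (5.28 to 8.71 FPKM), and its C57B mice (3.30 to 5.74 FPKM) overlapped those given saline. Lyz2 did not show this step, with 2602 ± 459 FPKM in C3H with ATG and 2722 ± 609 FPKM with saline in hyperoxia. Within groups the genes most like the mean were Mgp, Napsa, Limd2, Rgs10 and Nme3, with r of 0.63 to 0.64. The genes most like Ciita were Wdr48 (0.88), Mlec (0.87), Parp12 (0.86), Tyk2 (0.86) and Tapbpl (0.84) over all mice, and Samd9l (0.84), Gabpb2 (0.83), Pde7b (0.82), Parp1 (0.81) and Inpp5b (0.80) within groups. None of the genes most like Ciita was among those most like the mean of the 6.

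Ratios between members, which do not change with the scaling of a library, also differed between conditions. The ratio of Cd74 to H2-Ab1 was 2.28 to 2.86 in C57B with saline in room air and 2.59 to 2.95 in hyperoxia, and in C3H 1.79 to 4.49 and 3.74 to 4.76. Apart from C3HM mouse 1 at 1.79 and 1 other male at baseline, each C3H value was above the C57B values. The ratio of H2-Eb1 to H2-Ab1 rose in hyperoxia in both strains, from 0.616 ± 0.0590 to 0.974 ± 0.101 in C3H with saline and from 0.761 ± 0.0342 to 0.922 ± 0.0769 in C57B with saline, without overlap of the airs. With ATG in hyperoxia it was 0.787 ± 0.0740 in C3H. The ratio of H2-DMb2 to H2-DMb1, which share sequence, was 0.609 ± 0.108 in C3H and 0.417 ± 0.0332 in C57B at baseline, and 0.693 ± 0.0915 and 0.302 ± 0.0950 with ATG in hyperoxia.

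**Figure D5:**
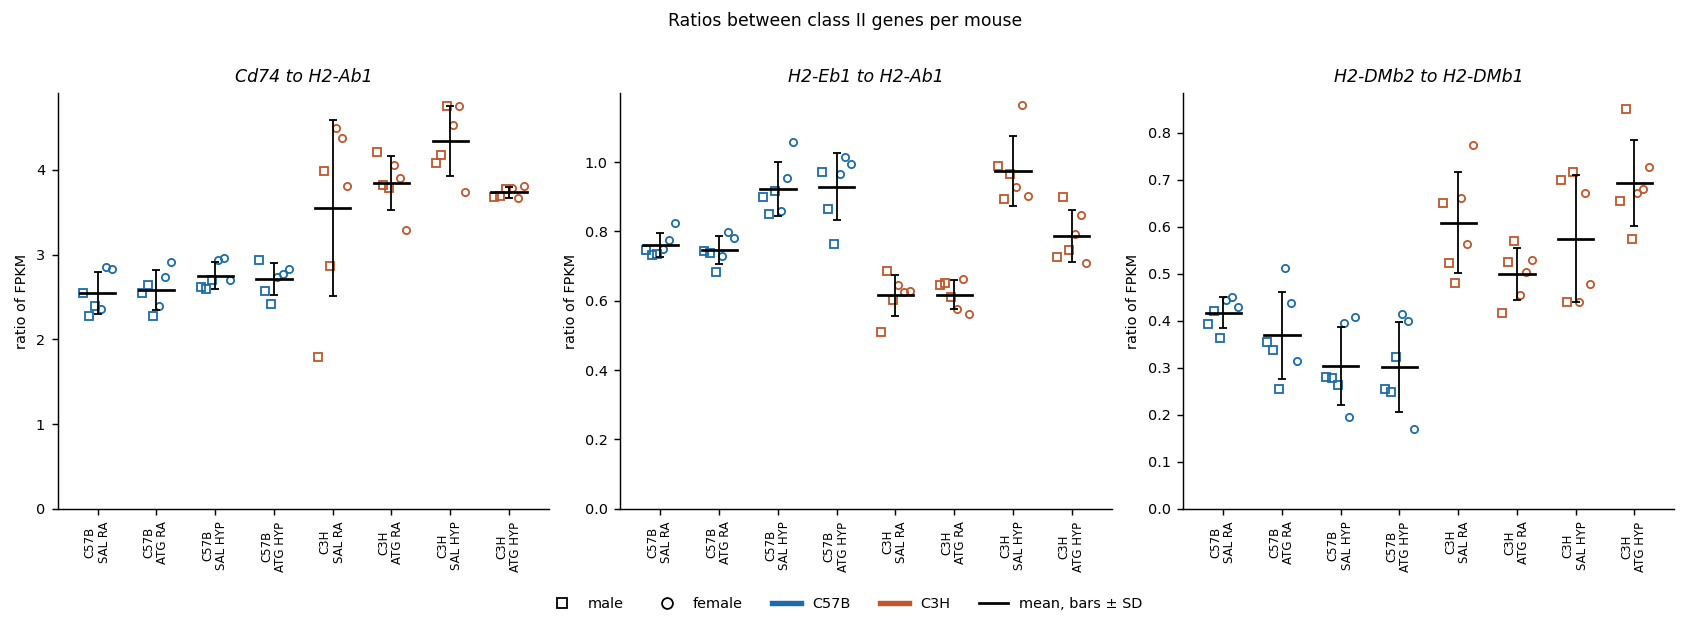
Ratio of the FPKM of Cd74 to H2-Ab1, H2-Eb1 to H2-Ab1 and H2-DMb2 to H2-DMb1 (y axes, from 0) in each mouse by condition (x axis, 6 mice each), with squares for males, circles for females and bars for the mean ± SD. The ratios with Cd74 and H2-DMb2 as numerator are higher on average in C3H than in C57B, and that of H2-Eb1 is higher in hyperoxia than in room air in saline mice of both strains.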

How the data were processed

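RNA of 48 mouse lungs, 1 library per mouse, was sequenced by the authors, mapped to mm10 with GSNAP and summarised with Cufflinks, per the submitters' processing notes, which also name SAMtools. The deposited values are FPKM, normalized by the authors for transcript length and library total. Read counts were not used here, so the depth per value is unknown and no counting interval was given. Genes were matched to GENCODE M21, and Akap5, with failed estimates, was left out. Values were analysed as log2(FPKM + 1) for the 16994 genes with at least 1 FPKM in at least 3 mice, with limma 3.58.1 in R 4.3.3. One fit held all 16 groups, with sexes averaged in each contrast, an intensity trend in the variance and Benjamini-Hochberg adjustment at 0.05. The fit was tested on simulated data. The members and lists were chosen with earlier results of these data known. All members are named, and from each list up to 4 called genes with the largest differences. In hyperoxia, Sftpb, H2-Oa, Ctsl and Irf1 in C3H and Itgax, Ctsb, Ctsd and Ctss in C57B fall outside that rule and were named after their values were seen. Some called genes of the lists are not reported here. Lists covered class II promoter factors, interferon gamma signal and Ciita inducers, processing and turnover, recognition and costimulation, and markers of B cells, T cells, dendritic cells, alveolar macrophages, monocytes and interstitial macrophages, and alveolar type 2 cells. Likeness to other genes was ranked by Pearson correlation. Alternatives were a pseudocount of 0.1, a minimum of 0.1 FPKM or none, quantile normalization, median ratio scaling, no trend, a fit of only the mice compared, and leaving out each mouse.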

Additional observations from a re-analysis of the deposited data

Results flagged for a closer look

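Of the 80 sets of 6 mice formed by the 10 genes and 8 conditions, 5 held a highest or lowest mouse whose gap to the nearest other, as a share of the range, was above Dixon's critical value of 0.625. Chance gives such a value in about 1 set in 20. In the C57B females with saline in hyperoxia, mouse 43 was low in H2-Aa (gap 0.728, 126 FPKM against at least 170.3 FPKM in the other mice) and in H2-Eb1 (gap 0.677, 113 FPKM). The other 3 were for H2-Ea-ps in C57B, where all levels were near 0. They were mouse 37 in saline and room air (gap 0.691, 1.87 FPKM), mouse 19 with saline in hyperoxia (gap 0.688, 2.28 FPKM) and mouse 24 with ATG in hyperoxia (gap 1, 0.374 FPKM with the other mice at 0).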

How the results depend on the processing

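In the 11 comparisons recomputed, no called difference of a member changed sign. Not recomputed were the strain comparisons other than saline room air, hyperoxia in ATG mice, and strain by ATG. With ATG in hyperoxia in C57B, the number of members called was 1 and became 0 with a pseudocount of 0.1, quantile normalization, median ratio scaling and a fit of only the mice compared, and was 0 to 1 on leaving out single mice. For sex by hyperoxia it was 0 and became 1 (Cd74) with quantile normalization, and was 0 to 1 on leaving out single mice. For strain by hyperoxia it was 6, became 4 with median ratio scaling, and was 5 to 8 on leaving out single mice. Over all genes, a fit of only the mice compared lowered the calls from 2982 to 1832 for strain at baseline, from 2994 to 1880 for strain by hyperoxia, from 490 to 280 and from 457 to 1 for ATG in hyperoxia in C3H and C57B, from 2108 to 488 for sex, and from 707 to 6 for sex by hyperoxia. The same fit took sex by strain from 77 to 0 calls, which was 31 without a filter and 130 with quantile normalization. ATG in hyperoxia in C57B had 304 calls with quantile normalization, and ATG in room air in C57B had 9 calls, 14 with the lower minimum and 21 without a filter. Single mice moved many of these counts by over 1.5 times. Without C3HM saline room air mouse 2, ATG in C3H in room air had 1166 calls in place of 0 (0 to 4 without any other mouse), sex by strain 1174 in place of 77, strain at baseline 4567 in place of 2982, sex 3163 in place of 2108 and sex by hyperoxia 1879 in place of 707. Without C57BM saline hyperoxia mouse 19, ATG in C57B in hyperoxia had 0 in place of 457 and sex by hyperoxia 2016, its highest, while its lowest was 442, without mouse 21 of the same group. Leaving out that mouse 21 gave the highest count for ATG in C57B in hyperoxia, 1217, and mice 20, 22, 23, 24, 43, 45, 46 and 47 gave 106 to 766. Sex by hyperoxia had 1111, 450 and 454 without mice 31, 33 and 48. ATG in C3H in hyperoxia had 986 in place of 490 without C3HF saline hyperoxia mouse 33, 284 without mouse 32 of that group and 323 without C3HF ATG hyperoxia mouse 36. ATG in C57B in room air had 14 without mouse 17, and sex by strain was 31 to 1174 over all single mice left out. Median ratio scaling moved the share of calls that were higher from 30.7% to 51% for strain at baseline, from 66.3% to 48% for hyperoxia in C3H, from 75.2% to 45.6% for strain by hyperoxia, from 60.2% to 44.6% and from 69.8% to 38% for ATG in hyperoxia in C3H and C57B, from 39% to 52.7% for sex, from 45.5% to 66.3% for sex by strain and from 69.4% to 40.5% for sex by hyperoxia. The medians over the members under that scaling were -0.49, -1.06, 0.55 and 0.62 for the first 4 of these. Among single members, Ciita lost its call for strain by hyperoxia under 5 alternatives and on leaving out any of 14 mice, and Cd74 lost its call for ATG in hyperoxia in C3H under 2 alternatives and without 1 mouse. No paired analysis was possible because each mouse has its own number. Without read counts the depth could not be used to weigh single values.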
